A study of Mus musculus with 20 samples.

Results

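Macrophages clear dying cells and modified lipoprotein through a set of surface receptors, and 10 of the genes for them were followed here in mouse bone marrow-derived macrophages exposed to cholesterol crystals and cyclodextrin. The genes were Mertk, Axl, Cd36, Msr1, Marco, Scarb1, Stab1, Olr1, Cd68 and Lrp1. All probes that the platform annotation names for them were taken, which gave 15 probes of 45281 and covered 9 of the 10 genes. Cd68 was not analysed here. Of the 15 probes, 10 were detected on enough arrays to be tested, for 8 genes, among 18348 probes tested in all.

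RNA was measured on 20 Illumina mouse BeadChip arrays in 4 groups of 5. The CD-cc cells received cholesterol crystals for 3 h (200 ug, a dose set relative to cell number) and then 10 mM hydroxypropyl-beta-cyclodextrin for 6 h. The CD cells received 6 h of the cyclodextrin alone and the cc cells the crystals alone. The con cells were untreated. Every group was C57BL/6 bone marrow grown with 40 ng/ml M-CSF, the growth factor that turns marrow progenitors into macrophages, and 10 percent serum. Mice labelled 2 to 5 months old gave the CD-cc, CD and cc cells, and mice labelled 10 to 15 months old gave the con cells, so in any comparison with con the treatment and the labelled age cannot be told apart. The sources used here do not give the time that cc and con cells stood while the others had cyclodextrin, so time cannot be told apart from treatment either. The design text mentions mice without liver X receptors (LXR), the sterol sensors of macrophages, while the labels give no genotype for any array, and none was assigned. Whether a replicate is an animal or a culture of its own is not stated in the labels, and each p-value reflects only how these arrays spread, which may in part be technical.

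Mertk and Axl are receptor tyrosine kinases of the TAM family, which bind phosphatidylserine on dying cells through the bridging proteins Gas6 and protein S. Cd36, Msr1 (scavenger receptor A), Marco and Olr1 (LOX-1) bind modified low-density lipoprotein, and their uptake, which is not shut off by cell sterol, loads macrophages with cholesterol in the artery wall. Stab1 recognises phosphatidylserine and modified lipoprotein, Scarb1 exchanges cholesterol with high-density lipoprotein, and Lrp1 is a large endocytic receptor for apolipoprotein E and protease complexes. Mertk is an established target of LXR, through which engulfed cholesterol raises the capacity to engulf further cells.

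LXR and related receptors bind copies of a 6-base motif, AGGTCA or GGGTCA. RefSeq's promoter table (build GRCm38.p6) held 8 of the 10 genes, each from 250 bases before to 50 after the start. Either motif, on either strand, was found in 5 of the 8 (Mertk, Cd36, Marco, Stab1 and Olr1), with 1 copy in each, and was found in 27.5% of all 32851 promoters of the same length. AGGTCA alone was in 16.3% and GGGTCA alone in 13.7%. None of the 8 held the spaced pair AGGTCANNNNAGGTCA, which 5 promoters of the table hold. A match is a description of letters, not a binding site. The 250 bases before the start are given for the TAM pair and for Stab1 and Marco, the genes on which the results turn, 5′ to 3′ on the gene's strand with the motif in capitals. The stretches lie at chr2:128698665-128698914 (plus strand), chr7:25788734-25788983, chr14:31168642-31168891 and chr1:120505025-120505274 (minus strand for these 3 genes). The motif begins at -219 in Mertk (GGGTCA read on the opposite strand), at -80 in Stab1 and at -152 in Marco, and Axl has none.
Mertk: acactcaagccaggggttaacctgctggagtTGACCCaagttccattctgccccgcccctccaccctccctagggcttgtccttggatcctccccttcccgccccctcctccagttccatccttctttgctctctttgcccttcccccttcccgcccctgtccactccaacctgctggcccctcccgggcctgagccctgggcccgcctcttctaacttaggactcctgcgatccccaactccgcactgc
Axl: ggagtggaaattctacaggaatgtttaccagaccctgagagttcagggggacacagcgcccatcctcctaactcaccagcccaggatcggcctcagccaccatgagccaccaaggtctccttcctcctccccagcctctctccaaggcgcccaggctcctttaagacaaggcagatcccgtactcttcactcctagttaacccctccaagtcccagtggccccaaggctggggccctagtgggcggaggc
Stab1: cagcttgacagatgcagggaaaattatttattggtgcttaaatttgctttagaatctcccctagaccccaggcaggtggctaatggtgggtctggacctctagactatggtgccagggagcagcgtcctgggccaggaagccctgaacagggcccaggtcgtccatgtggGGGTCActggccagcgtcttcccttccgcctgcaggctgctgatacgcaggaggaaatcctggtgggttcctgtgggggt
Marco: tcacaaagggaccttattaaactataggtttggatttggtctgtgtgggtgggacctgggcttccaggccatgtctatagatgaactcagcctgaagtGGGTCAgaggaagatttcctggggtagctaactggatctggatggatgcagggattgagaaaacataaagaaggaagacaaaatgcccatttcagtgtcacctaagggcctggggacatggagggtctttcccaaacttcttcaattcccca

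Median bead signal lay between 86.6 and 128 per array, with 33.9 to 39.5% of probes detected, and 5 arrays per group set the limit of precision. The arrays fell into 5 sets of 4, 1 of each group, which could be read from the authors' normalised values. Sets 1 to 3 lay on chips 1 and 5 (12 arrays) and had the female pattern, with Xist high and Eif2s3y low. Sets 4 and 5 lay on chips 2, 3, 4 and 6 (8 arrays) and had the male pattern, so inferred sex and chip batch coincide. All 10 named macrophage markers were detected on 20 of 20 arrays. Their summed normalised signal was 51689 to 62421 in CD-cc, 65002 to 70731 in CD, 51904 to 64424 in cc and 61705 to 73166 in con.

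Mertk was the 1 receptor gene that passed the test without a block, and it did so in the comparisons of CD with con and of CD-cc with CD. Values are log2 levels after background correction and quantile normalization (probe ILMN_2714638), given in the order of sets 1 to 5. The CD-cc arrays had 9.08, 9.64, 9.27, 8.90 and 8.58, and the CD arrays had 7.91, 8.16, 7.62, 7.11 and 6.55. The cc arrays had 9.29, 9.79, 9.26, 9.99 and 9.94, and the con arrays had 8.73, 8.73, 8.55, 9.44 and 9.12. Every CD array lay below every array of the other 3 groups, whose ranges overlapped each other. The group means were 9.09 ± 0.396 in CD-cc, 7.47 ± 0.645 in CD, 9.65 ± 0.351 in cc and 8.91 ± 0.358 in con (SD, n = 5 each), so the order from low to high was CD, con, CD-cc and cc. The neighbours CD-cc and con differed by 0.18 (95% interval -0.37 to 0.73), and CD-cc and cc, which differed by -0.56, did not pass the test either.

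**Figure D1:**
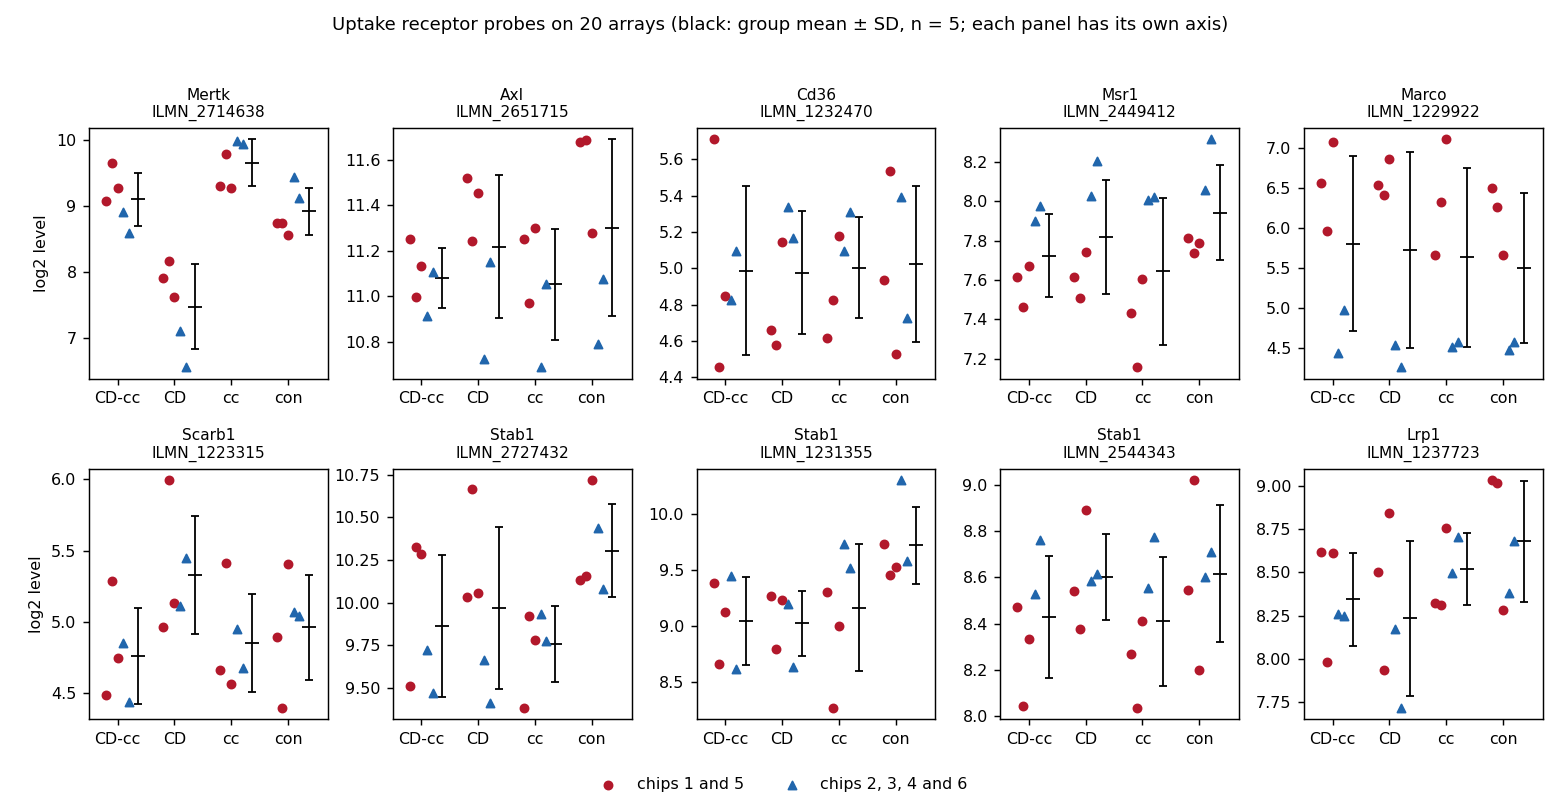
Log2 level of the 10 tested probes on each of the 20 arrays (y axis, a scale of its own in each panel) by group (x axis), with the group mean and SD (n = 5) in black, and with chips 1 and 5 in red circles and the other chips in blue triangles. The 5 CD arrays lie lowest for Mertk, and the chip batches separate for Marco and Msr1.

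Cyclodextrin alone went with less Mertk RNA, in a comparison where the labelled age differs too. Mertk was 2.72-fold lower in CD than in con (log2 -1.45 ± 0.266 SE, 95% interval -2.00 to -0.89, limma adjusted p = 0.00975), and lower in 5 of 5 sets. Of the 10 probes it was the 1 called, in a comparison where 0.959% of all probes were called and 0.213% were called lower, and its groups did not overlap, as was the case for 2.76% of probes. The fall of Mertk with cyclodextrin was known from earlier results of these data when the members were chosen, so this count is a description. On chips 1 and 5 the difference was -0.78 (adjusted p = 0.219), and it was -2.45 on the other chips (adjusted p = 2.20e-04). These 2 values differed by 1.67 (adjusted p = 0.0174), in a test that called 0.54% of probes. The call was lost with the chip as a fixed block (log2 -1.23, adjusted p = 0.0785), under scale normalization (adjusted p = 0.0626) and in a fit of the CD and con arrays alone (adjusted p = 0.0542). Before normalization the groups met, since the highest CD bead signal was 380 and the lowest con bead signal 354, both in set 2. In bulk RNA, fewer cells of a type and less RNA per cell cannot be told apart.

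Crystals given before cyclodextrin went with more Mertk than cyclodextrin alone. Mertk was 3.09-fold higher in CD-cc than in CD (log2 1.63 ± 0.266, 95% interval 1.07 to 2.18, limma adjusted p = 6.40e-04). It was higher in 5 of 5 sets, by 1.17 to 2.03, and was the 1 probe of 10 called, where 7.23% of all probes were called and 3.79% were called higher. Both groups carry the same age label, and their ranges did not overlap, as was the case for 6.58% of probes. On chips 1 and 5 the difference was 1.43 (adjusted p = 7.85e-04), and it was 1.91 on the other chips (adjusted p = 0.00228). On chips 1 and 5 all 3 CD-cc arrays were on chip 1 and all 3 CD arrays on chip 5. With the chip as a fixed block the difference was 1.63 (adjusted p = 0.0185), and on chip 6, which held 1 array of each, the CD-cc array had 8.90 and the CD array 6.55. The call held under each of the 37 alternatives run, with adjusted p up to 0.0185.

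**Figure D2:**
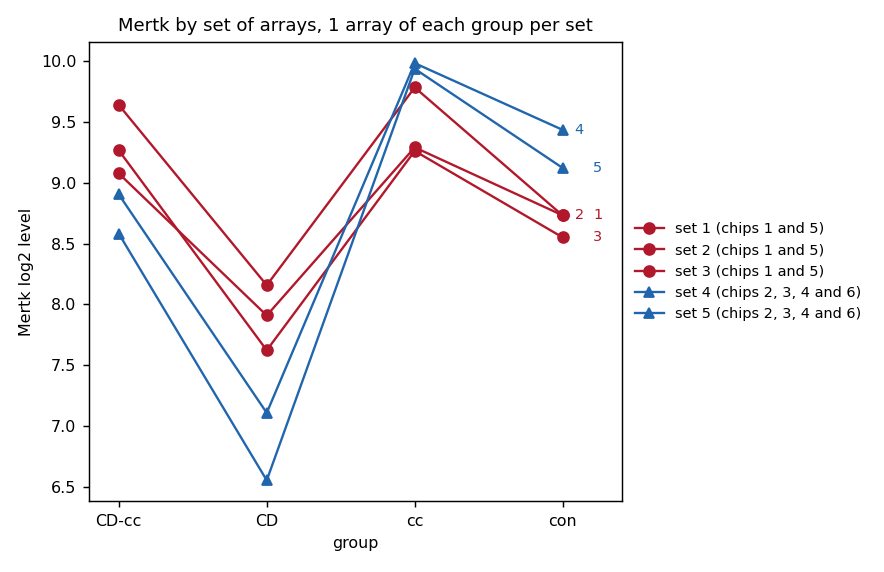
Mertk log2 level (y axis) in the 4 groups (x axis), with each line joining the 4 arrays of 1 set and with chips 1 and 5 in red circles and the other chips in blue triangles. Every line has its lowest point at CD, between 6.55 and 8.16, and its cc point lies above its con point.

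Crystals alone, set against con cells of another age label, went with a smaller difference. Mertk was 1.67-fold higher in cc than in con (log2 0.74 ± 0.266, 95% interval 0.18 to 1.29) and higher in 5 of 5 sets. It missed the threshold without a block (limma adjusted p = 0.0715) and passed it with the set as a block (adjusted p = 0.0460). None of the 10 probes was called without a block in this comparison, where 13.7% of all probes were. With the set block 4 were called (Mertk higher, Msr1 and 2 probes of Stab1 lower), where 22.9% of all probes were.

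Between CD-cc and cc, the cells that differ by cyclodextrin alone in their labels, Mertk was 0.56 lower in CD-cc on the log2 scale (95% interval -1.11 to -0.00409, limma adjusted p = 0.646). No probe of the 18348 was called there (0%) without a block, while 7.68% had an unadjusted p below 0.05 and 1.06% were called with the set block (Mertk adjusted p = 0.342). On chips 2, 3, 4 and 6 the Mertk difference was -1.22 (adjusted p = 0.0137), and on chips 1 and 5 it was -0.12. These 2 values differed by 1.10, which was not called (adjusted p = 0.178). Between CD-cc and con the Mertk difference was 0.18 (adjusted p = 0.713), with 0.66 in chips 1 and 5 (adjusted p = 0.0447) and -0.54 in the other chips (adjusted p = 0.156), and these 2 values differed by 1.19 (adjusted p = 0.107). None of the 10 probes was called in CD-cc against con, where 16.6% of all probes were.

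Between cells with and without cyclodextrin, the Mertk difference was -0.56 among crystal-loaded cells (CD-cc minus cc) and -1.45 among cells without crystals (CD minus con), where the labelled age differs too. The interaction was 0.89 ± 0.376 (95% interval 0.10 to 1.67, unadjusted p = 0.0285), positive in 5 of 5 sets, and did not pass after adjustment over all probes (limma adjusted p = 1.00). The test of interaction called 0.0763% of all probes and none of the 10.

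The summed signal of 8 T and NK cell markers also was lowest in CD and highest in cc, with 3692 to 4847 in CD-cc, 1209 to 2460 in CD, 5001 to 7498 in cc and 1440 to 3768 in con. The con range of these markers overlapped those of CD and CD-cc. Of these markers Il7r and Klrb1c were detected on at least 5 arrays, and the defining markers Cd3e and Ncr1 were detected on 0 arrays. The summed signal of 6 osteoclast markers ran in the same order of groups. It was 470 to 981 in CD-cc, 279 to 768 in CD, 500 to 1226 in cc and 316 to 855 in con, and these ranges overlapped. The part of either list of markers in the Mertk result was not tested.

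**Figure D3:**
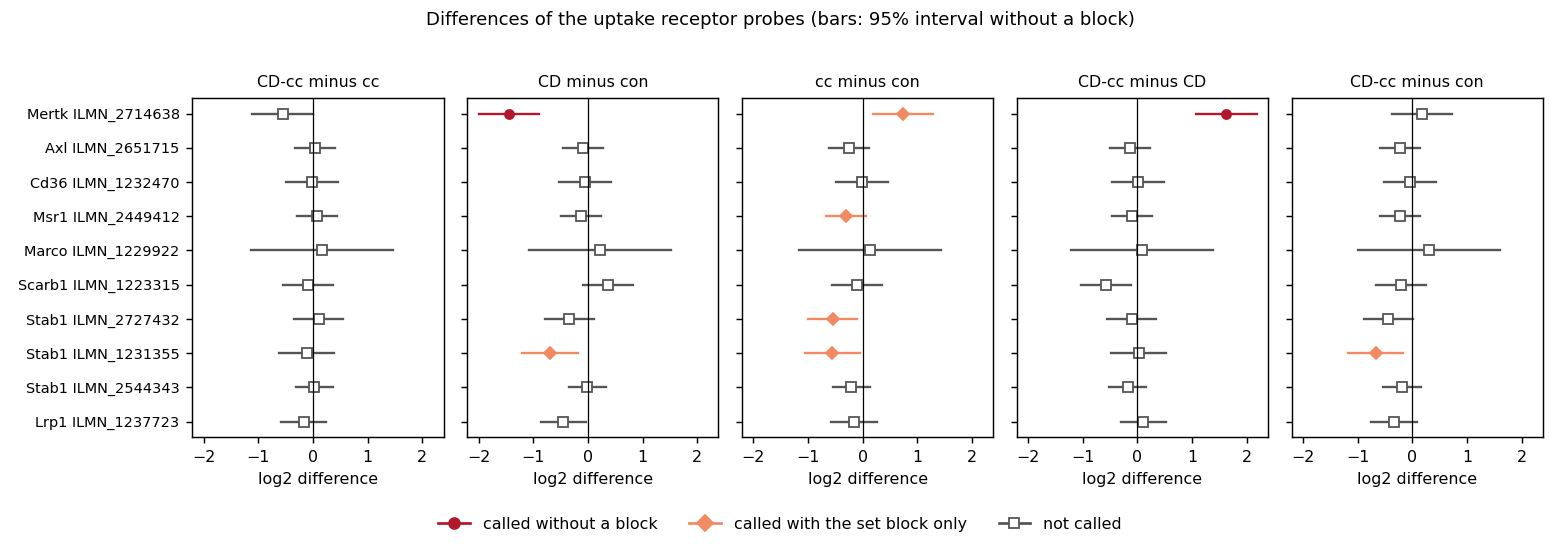
Log2 difference (x axis) of each tested probe (y axis) in the 5 comparisons of 2 groups, with the 95% interval without a block. Filled red circles are probes called without a block, orange diamonds are probes called with the set block only and open squares were not called, and Mertk carries both red circles, at -1.45 in CD minus con and 1.63 in CD-cc minus CD.

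The 3 genes whose level ran most like that of Mertk over the 20 arrays, of 9737 genes compared by Pearson's r, were Nrp1, Gnpda1 and Rap2a. Nrp1 encodes neuropilin-1, a receptor for semaphorins and vascular growth factor, Gnpda1 an enzyme of hexosamine breakdown and Rap2a a small GTPase. Pearson's r was 0.971 for Nrp1, 0.957 for Gnpda1 and 0.900 for Rap2a, and after subtraction of the group means it was 0.885, 0.811 and 0.677 for the same order of genes. The arrays share chips and groups, so these coefficients are a description. The genes were chosen for their likeness to Mertk on the same arrays, so their group differences repeat its pattern by that choice and are given with no test. Nrp1 averaged 11.55 ± 0.263 in CD-cc, 10.67 ± 0.292 in CD, 11.87 ± 0.299 in cc and 11.38 ± 0.242 in con (SD, n = 5 each). For Nrp1 the log2 difference was 0.88 in CD-cc minus CD, -0.71 in CD minus con and 0.49 in cc minus con. For Gnpda1 it was 0.58, -0.53 and 0.33 in the same order of comparisons, and for Rap2a it was 1.55, -0.82 and 1.07.

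**Figure D4:**
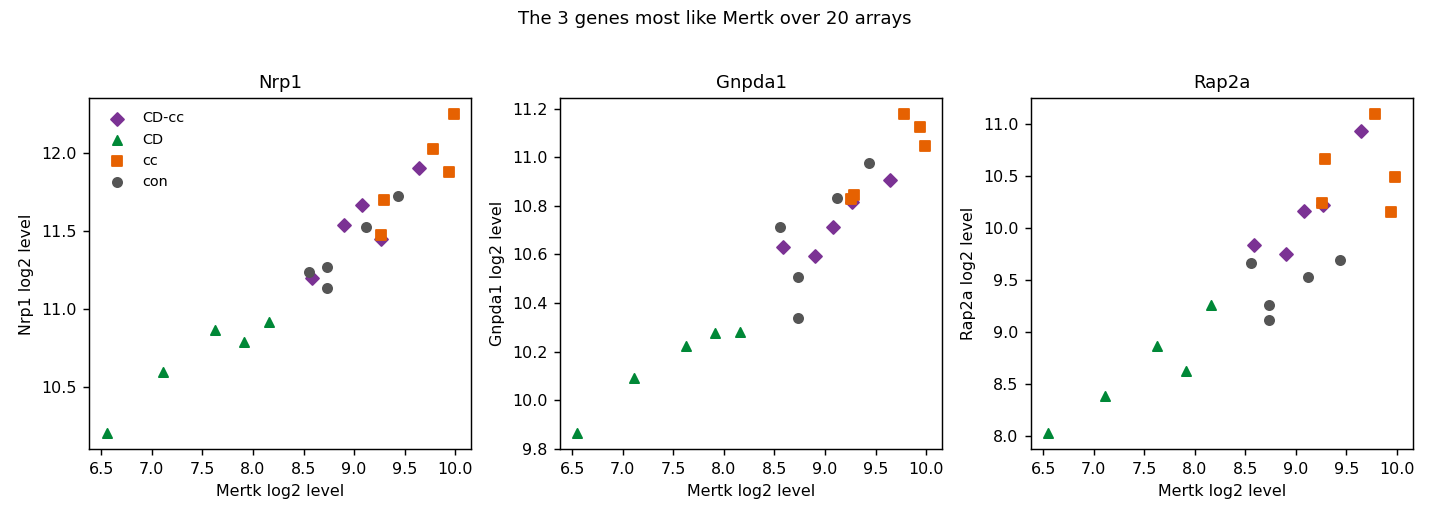
Log2 levels of Nrp1, Gnpda1 and Rap2a (y axes) against Mertk (x axis) on 20 arrays, with 1 symbol for each group. The 5 CD arrays have the lowest Mertk levels, at the left of each panel, while CD and con arrays overlap in Rap2a level, and Pearson's r is 0.971, 0.957 and 0.900 in the order of the panels.

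Axl, the other TAM receptor measured, was called in no comparison. Probe ILMN_2651715 was detected on 20 of 20 arrays and averaged 11.08 ± 0.131 in CD-cc, 11.22 ± 0.314 in CD, 11.05 ± 0.245 in cc and 11.30 ± 0.388 in con (SD, n = 5 each). The ranges of the 4 groups overlapped. CD minus con was -0.08 (95% interval -0.45 to 0.28) and CD-cc minus CD was -0.14 (-0.50 to 0.23). The difference between the 2 genes was not tested. The further Axl probe, ILMN_2557510, was detected on 1 of 20 arrays and was not tested.

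Stab1, the phosphatidylserine receptor also called stabilin-1, was measured by 3 probes, and none was called without a block. With the set block, ILMN_1231355 was called lower in CD, cc and CD-cc against con and ILMN_2727432 lower in cc against con, while ILMN_2544343 was called in no comparison. In sets 1 to 5, ILMN_1231355 had 9.39, 8.66, 9.13, 9.45 and 8.62 in CD-cc, and 9.27, 8.79, 9.23, 9.20 and 8.64 in CD. It had 9.30, 8.28, 9.0, 9.73 and 9.51 in cc, and 9.73, 9.45, 9.53, 10.30 and 9.58 in con. All CD-cc arrays lay below all con arrays, groups that do not overlap in 13% of probes. The margin was narrow, with the highest CD-cc array at 9.448 and the lowest con array at 9.454. All CD arrays also lay below all con arrays, where 2.76% of probes do not overlap, and the cc arrays overlapped con.

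The log2 difference of ILMN_1231355 was -0.69 ± 0.242 in CD minus con (limma adjusted p = 0.267 without a block and 0.0269 with it). It was -0.55 ± 0.242 in cc minus con (0.146 and 0.0203) and -0.67 ± 0.242 in CD-cc minus con (0.0645 and 0.00560). Each of these 3 was lower in 5 of 5 sets. With the set block 2 of 10 member probes were called lower in CD minus con (this probe and Mertk, whose fall was known beforehand), where 1.16% of all probes were. In CD-cc minus con it was 1 of 10, where 14.5% of all probes were called lower, so that share is no larger than for probes in general. All 3 comparisons share the con arrays and with them the age label.

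For ILMN_2727432 the values in sets 1 to 5 were 9.51, 10.33, 10.29, 9.72 and 9.47 in CD-cc, and 10.03, 10.67, 10.06, 9.67 and 9.41 in CD. They were 9.38, 9.92, 9.78, 9.93 and 9.77 in cc, and 10.13, 10.16, 10.72, 10.44 and 10.08 in con. The cc arrays all lay below the con arrays, which do not overlap in 12.5% of probes, and the other groups overlapped con. The difference of cc from con was -0.55 ± 0.216 (limma adjusted p = 0.104, and 0.0252 with the set block), lower in 5 of 5 sets. Against con, ILMN_2544343 differed by -0.19 in CD-cc, -0.01 in CD and -0.21 in cc, with intervals that span 0. Differences between the 3 probes were not tested.

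Marco, a scavenger receptor with a collagen-like stalk, lay apart between chip batches and was called in no comparison of groups. Probe ILMN_1229922 was detected on 12 of 12 arrays of chips 1 and 5, at 5.66 to 7.11, and on 1 of 8 arrays of the other chips, at 4.26 to 4.97. The 2 batches did not overlap, which held for 2.43% of all probes, and 0.747% lay higher on every array of chips 1 and 5. In sets 1 to 5 Marco had 6.56, 5.96, 7.08, 4.44 and 4.97 in CD-cc, and 6.53, 6.42, 6.86, 4.54 and 4.26 in CD. It had 5.66, 6.32, 7.11, 4.51 and 4.58 in cc, and 6.50, 6.27, 5.67, 4.48 and 4.58 in con. The low values of sets 4 and 5 occur in all 4 groups. No comparison of groups was called, with differences of 0.08 to 0.30 and an SE of 0.623 without a block and 0.230 with the set block.

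Msr1, the scavenger receptor A gene, lay the other way between batches, at 7.16 to 7.82 on chips 1 and 5 and 7.90 to 8.31 on the other chips (probe ILMN_2449412, detected on 20 of 20 arrays). The groups averaged 7.72 ± 0.211 in CD-cc, 7.82 ± 0.289 in CD, 7.64 ± 0.373 in cc and 7.94 ± 0.242 in con (SD, n = 5 each), with overlapping ranges. Msr1 was 0.30 lower in cc than in con (limma adjusted p = 0.310), lower in 5 of 5 sets, and was called with the set block (adjusted p = 0.0205). The summed signal of 8 fibroblast and stroma markers also separated the batches, with 603 to 1121 on chips 1 and 5 and 1228 to 2335 on the other chips, as did that of 6 osteoclast markers, with 279 to 668 and 691 to 1226 in that order. The part of sex, of chip and of these markers in the Marco and Msr1 values was not tested. The further Msr1 probe, ILMN_2619240, was detected on 0 arrays.

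**Figure D5:**
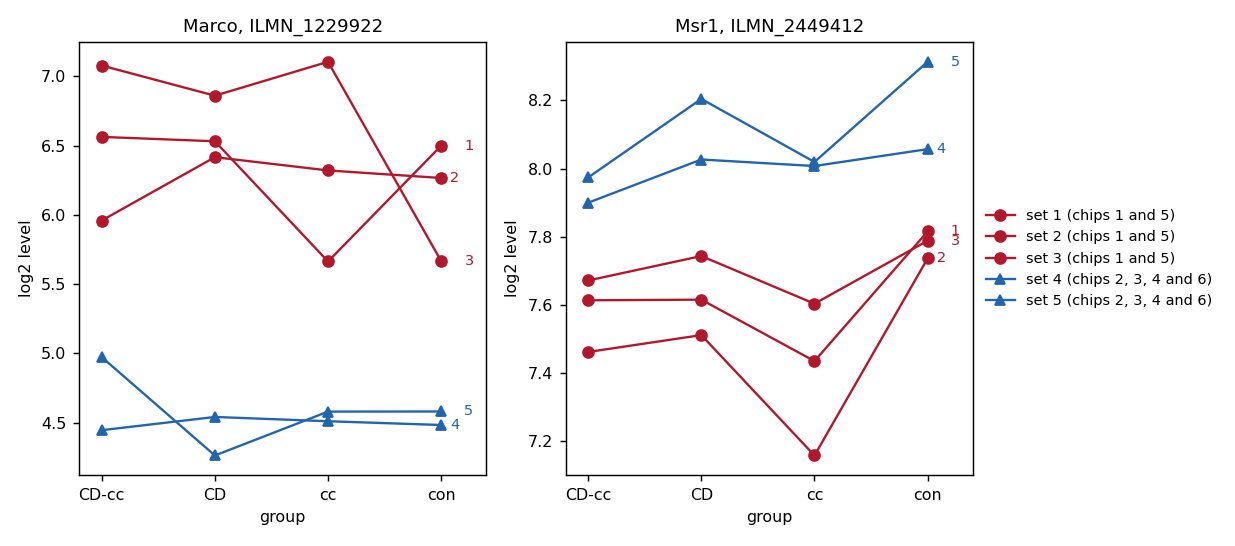
Log2 level of Marco and Msr1 (y axes) in the 4 groups (x axis), with each line joining the 4 arrays of 1 set. Sets 1 to 3 (red circles) lie above sets 4 and 5 (blue triangles) for Marco and below them for Msr1, in every group.

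Cd36, a fatty acid and lipoprotein receptor, lay near background. Probe ILMN_1232470 was detected on 15 of 20 arrays and averaged 4.99 ± 0.465 in CD-cc, 4.98 ± 0.338 in CD, 5.00 ± 0.280 in cc and 5.02 ± 0.430 in con (SD, n = 5 each). Differences between groups were at most 0.05 in size, with an SE of 0.229. Olr1 was measured by 2 probes, each detected on 0 of 20 arrays, with bead signals of 78.5 to 125, so no difference can be read for it. The low signals of both probe sets say nothing of protein.

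Scarb1, the receptor for high-density lipoprotein, was detected on 2 of 5 CD-cc arrays, 5 of 5 CD arrays, 2 of 5 cc arrays and 4 of 5 con arrays (probe ILMN_1223315). In sets 1 to 5 it had 4.49, 5.28, 4.75, 4.85 and 4.44 in CD-cc, and 4.96, 6.00, 5.13, 5.11 and 5.45 in CD. CD-cc minus CD was -0.57 ± 0.219 (95% interval -1.02 to -0.11, limma adjusted p = 0.135, and 0.0703 with the set block). It was lower in CD-cc in 5 of 5 sets, while the ranges of the groups overlapped. Without background correction the same difference was smaller in size, -0.17 (adjusted p = 0.170), and a further probe, ILMN_1218449, was detected on 0 arrays.

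Lrp1, the endocytic receptor for apolipoprotein E, was detected on all 20 arrays (probe ILMN_1237723). It averaged 8.34 ± 0.271 in CD-cc, 8.23 ± 0.450 in CD, 8.52 ± 0.208 in cc and 8.68 ± 0.350 in con (SD, n = 5 each), with overlapping ranges. CD minus con was -0.45 ± 0.200 (unadjusted p = 0.0370, limma adjusted p = 0.474), lower in 4 of 5 sets.

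Over the 10 tested probes the median log2 difference was 0.000724 in CD-cc minus cc, -0.10 in CD minus con, -0.18 in cc minus con, -0.04 in CD-cc minus CD and -0.21 in CD-cc minus con. The same median over all 18348 probes lay between -0.0129 and -0.00648 in these 5 comparisons. The 3 Stab1 probes share a gene and are not independent.

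Beyond these receptors, 80 genes of dying cell uptake, lipoprotein uptake and their transcription were listed, and 67 had a tested probe, taken as the brightest per gene. The genes called higher and lower without a block numbered 0 and 0 in CD-cc minus cc, 1 and 0 in CD minus con, 2 and 12 in cc minus con, 1 and 8 in CD-cc minus CD, and 7 and 12 in CD-cc minus con. With the set block they were 1 and 0, 5 and 0, 5 and 18, 4 and 11, and 9 and 16 in the same order. As shares of the 67 genes, the calls without a block were 0, 1.49, 20.9, 13.4 and 28.4%, set beside 0, 0.959, 13.7, 7.23 and 16.6% of all probes. With the set block 1.06, 3.17, 22.9, 14.7 and 27.1% of all probes were called. All probes include the dimmer probes of a gene, while the 67 genes are given by their brightest, so the shares are a description. Some of these brightest probes also have a low signal.

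Among 11 ligands, bridging proteins and sheddases, 2 fell in cc against con, 1 fell in CD-cc against CD, and 1 rose and 2 fell in CD-cc against con. Pros1, which encodes protein S, the bridge to Mertk, was 1.67-fold lower in CD-cc than in CD (log2 -0.74 ± 0.206, adjusted p = 0.0319) and 1.83-fold lower in cc than in con (log2 -0.87, adjusted p = 0.00695). Thbs1, thrombospondin-1, was 2.10-fold lower in cc than in con (adjusted p = 0.0201), and its signal was low. It was detected on 3 of 5 cc arrays and 5 of 5 con arrays, with means of 4.92 and 5.99. Adam17, the protease that sheds Mertk, was 1.58-fold higher in CD-cc than in con (log2 0.66, adjusted p = 0.0161). Adam17 was also 0.50 higher in CD than in con, called with the set block only (adjusted p = 0.308 without it and 0.0306 with it). C1qa differed by -0.42 in cc minus con, called in the same way (0.726 and 0.0192). With that block 1 gene of this list was called higher and 3 lower in cc minus con. The higher one was Mfge8, a further bridging protein (log2 0.38, adjusted p = 0.403 without the block and 0.0124 with it). In CD-cc minus con, Thbs1 differed by -1.20 (adjusted p = 0.00842) and Pros1 by -1.02 (adjusted p = 0.00186).

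Among 11 measured further receptors for dying cells, 2 fell in cc against con, 2 fell in CD-cc against CD and 2 fell in CD-cc against con. Cd14, the lipopolysaccharide co-receptor that also tethers apoptotic cells, was 2.12-fold lower in CD-cc than in CD (log2 -1.08 ± 0.289, adjusted p = 0.0248) and 2.20-fold lower in cc than in con (log2 -1.14, adjusted p = 0.0113). In CD-cc minus con Cd14 differed by -0.77, called with the set block only (adjusted p = 0.0728 without it and 0.00520 with it). Itgav, the integrin alpha V chain, was 1.78-fold lower in CD-cc than in CD (log2 -0.83 ± 0.192, adjusted p = 0.00957) and 2.20-fold lower in cc than in con (adjusted p = 5.61e-04). Its 3 probes ranged between -0.90 and -0.11 in CD-cc minus CD, and between -1.14 and 0.09 in cc minus con. Itgb5, which pairs with it, was 1.85-fold lower in CD-cc than in con (adjusted p = 0.00546). Megf10 was 0.41 higher in CD-cc than in CD, called with the set block only (adjusted p = 0.222 without it and 0.0375 with it).

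Of 14 measured genes of the engulfment machinery, 2 fell in cc against con, 1 fell in CD-cc against CD and 2 fell in CD-cc against con. Abca7, a transporter that promotes phagocytosis, was 1.50-fold lower in CD-cc than in CD (log2 -0.59 ± 0.138, adjusted p = 0.0114) and 1.48-fold lower in cc than in con (adjusted p = 0.00906). Elmo2, an adaptor of Rac activation, was 1.80-fold lower in CD-cc than in con (adjusted p = 0.00102). Was, which drives actin assembly, was called with the set block only, 0.57 lower in CD-cc than in CD (adjusted p = 0.156 without the block and 0.00899 with it), and also lower in cc and in CD-cc against con. Rac1, a GTPase of actin remodelling, was called 0.48 lower in cc than in con (0.204 and 0.0396) and Elmo2 0.50 lower in CD-cc than in CD (0.0566 and 0.0412) in the same way. Rab7, a GTPase of late endosomes that is named here after its values were seen, was called 0.39 higher in CD-cc than in CD (0.130 and 0.0495).

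Of 4 measured do-not-eat-me signals, 2 fell in cc against con and 1 in CD-cc against con. Cd47, the ligand of Sirpa that restrains engulfment, was 1.33-fold lower in cc than in con (log2 -0.41 ± 0.121, adjusted p = 0.0264). With the set block it was called higher in CD-cc than in cc (log2 0.44, adjusted p = 0.0356) and higher in CD than in con (log2 0.37, adjusted p = 0.0464), and lower in CD-cc than in CD (log2 -0.34, adjusted p = 0.0224, and 0.0986 without the block). It was the 1 listed gene called in CD-cc minus cc with that block, where 1.06% of all probes were. Pecam1 was detected on 1 of 5 CD-cc and 1 of 5 cc arrays, against 5 of 5 con arrays, and was called lower in both groups against con (log2 -0.83 and -0.79).

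Of 15 measured further scavenger and lipoprotein receptors, 2 fell in cc against con, 2 fell in CD-cc against CD, and 2 rose and 2 fell in CD-cc against con. Sort1, sortilin, was 1.61-fold lower in CD-cc than in CD (log2 -0.69 ± 0.183, adjusted p = 0.0246) and 1.72-fold lower in cc than in con (adjusted p = 0.00669), and its 4 probes ranged between -0.69 and -0.19 in CD-cc minus CD. Sorl1, a sorting receptor of the same family, was 1.48-fold lower in CD-cc than in CD (adjusted p = 0.0193). Cxcl16, a chemokine that is also a scavenger receptor for oxidised lipoprotein, was 0.48 higher in CD than in con, called with the set block only (adjusted p = 0.176 without it and 0.0266 with it). Lrp6, a co-receptor of Wnt signalling, was 1.40-fold higher in CD-cc than in con (adjusted p = 0.0446), with 0.09 for its further probe.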

How the data were processed

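RNA of bone marrow-derived macrophages was isolated with TRIzol and labelled as biotinylated cRNA, per the labels' protocols, and hybridised to BeadChips. The deposited file holds, per the file headers, an average bead signal (intensity, linear, not background-subtracted) and a detection p-value for 45281 probes on 20 arrays. The authors also deposited a value table on the log2 scale. It was recomputed from the bead signals as log2, quantile normalised, with each of 5 sets of 4 arrays adjusted to the same mean (SD of the difference 6.96e-05, largest 0.0185, and 20 of 20 arrays matched their own column), with column medians of 6.71 to 6.72. The sign of its values is that of the bead signals. Partek was used, per the submitters' processing notes, and its version and steps are not given in the sources used here.

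In R 4.3.3 with limma 3.58.1, the bead signals were background-corrected by neqc (offset 16, negative controls inferred by way of the detection p), quantile normalised and put on the log2 scale. The test took the 18348 probes with a detection p below 0.05 on 5 or more arrays. Groups were taken from the sample titles. A linear model of the 4 groups over all 20 arrays gave 5 comparisons and the interaction (lmFit, contrasts.fit, eBayes, two-sided), and a probe was called where its p, adjusted by Benjamini-Hochberg over the 18348 probes, was below 0.05. A value after ± is an SE unless named as SD.

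Gene names came from the platform annotation: 34885 probes had 1 symbol, 18 several and 10378 none, and those with several or none were not named. All member probes are reported. Of the related lists, named genes were drawn from the up to 3 called genes per list and comparison with the largest change, without a block or with the set block. Not every comparison in which a named gene was called is given. In addition, 3 transcription factors are named whatever their result, and Gas6 and Mfge8 were added after their values were seen. For each member called without a block, the 3 genes with the highest Pearson's r are named. Members, lists, tests and alternatives were chosen with earlier results of these data known. Mertk had been seen to fall with cyclodextrin in those results.

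Replicate numbers did not pair the arrays: deviations from the group means correlated at -0.55 to 0.65 between arrays of the same number (median -0.20). Within sets the median was 0.53, and the set was used as a block in an alternative. Simulated data in the layout of CD and con, with 50 changed probes of each size among 18348, gave a recovery of 18% at log2 0.5, 86% at 1, 94% at 1.5 and 92% at 2, with 11 false calls of 156. Alternatives covered background correction, normalization, the authors' table, the detection filter, probe choice, array weights, trend and robust fitting, blocks by chip, replicate number and set, each chip batch alone, the 3 arrays of lowest signal, the groups of a comparison alone, and each array left out.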

Additional observations from a re-analysis of the deposited data

Results flagged for a closer look

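In a group of 5 arrays, 1 value of the tested probes lay far from the other 4. Stab1 probe ILMN_2727432 was at 9.38 on cc replicate 5, while its nearest neighbour was at 9.77 and the highest cc array at 9.93. That gap is 0.714 of the range, against a critical ratio of 0.71. Of 40 groups of 5 looked at, 1 met this rule, and chance alone gives about 1 in 20.

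The Mertk difference between CD and con was smaller on chips 1 and 5 (log2 -0.78) than on chips 2, 3, 4 and 6 (-2.45). The difference of the 2 values was 1.67 in a limma fit of group within chip batch (adjusted p = 0.0174). Inferred sex and chip batch coincide, so their parts cannot be told apart.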

How the results depend on the processing

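The log2 differences of the brightest probe of 8 genes in 6 contrasts (48 values) were recomputed 1768 times. In 1734 the side of the threshold held, with the same direction for called values and a shift below the spread for uncalled ones. An uncalled value could change its sign and still count among these. Axl in CD minus con, at -0.08 as reported, reached 0.04. No called value turned its sign, 4 lost a call, 24 gained one and 6 moved by more than the spread. The count of member probes called was 1 in CD minus con. It was 2 with the authors' table, the set block or both together, and 0 under scale normalization, with the chip as a fixed block, on chips 1 and 5 alone or with the groups of the comparison alone. In cc minus con it was 0, and 5 with the authors' table, 4 with the set block (also with the authors' table), 2 with the groups of the comparison alone, 1 without background correction, with array weights or on chips 1 and 5 alone, and 0 to 1 when each array was left out (1 without con replicate 3 or CD replicate 5, each time Mertk). In CD-cc minus CD it was 1, and 2 with the authors' table. In CD-cc minus con it was 0, and 3 with the authors' table, 2 with the set block on that table, 1 with the set block, array weights, either chip batch alone or without the 3 arrays of lowest signal, and 0 to 1 when each array was left out (1 without cc replicate 1 or CD-cc replicate 5). In CD-cc minus cc it was 0, and 1 on chips 2, 3, 4 and 6 alone. With the replicate block, Mertk kept both calls (adjusted p = 0.00801 in CD minus con and 6.79e-04 in CD-cc minus CD), and the count of member probes called was unchanged in all contrasts. The cause of these changes was not tested. In the authors' table the sets have equal means, so a fit without the set term understates the spread.

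Over all probes the calls ranged from 0 to 906 in CD-cc minus cc (0 as reported, 194 with the set block), 67 to 1375 in CD minus con (176), 317 to 5689 in cc minus con (2521), 274 to 4292 in CD-cc minus CD (1327), 1208 to 6605 in CD-cc minus con (3052) and 0 to 53 for the interaction (14). Scale normalization moved the share of calls that were higher to 92% in CD minus con, against 77.8% as reported, and to 64.3% in cc minus con, against 49.9%. With the authors' table it was 51.8% in CD minus con. Signal over background limits Marco, Cd36 and Scarb1, which were not detected on every array, and Olr1 was detected on none. Without background correction the Scarb1 difference in CD-cc minus CD was -0.17, against -0.57 as reported.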

Other observations

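Of 12 measured transcription factors known to act on genes of these receptors, 2 rose and 2 fell in cc against con, 1 rose and 2 fell in CD-cc against CD, and 4 rose and 3 fell in CD-cc against con. In CD against con 1 rose. In the same order of comparisons 13.7, 7.23, 16.6 and 0.959% of all probes were called. Nr1h3, which encodes LXR alpha, was 2.27-fold higher in CD-cc than in con (log2 1.18 ± 0.254, limma adjusted p = 0.00295). It was 0.77 higher in CD than in con (adjusted p = 0.224, and 0.0173 with the set block), where its 2 probes gave 0.26 and 0.77. Srebf2, the driver of cholesterol synthesis, was 3.59-fold lower in CD-cc than in CD (log2 -1.84 ± 0.148, adjusted p = 6.55e-08) and 1.83-fold higher in CD than in con (log2 0.87, adjusted p = 0.00547). Srebf1, which drives fatty acid synthesis, was 1.71-fold higher in cc than in con (log2 0.78, adjusted p = 0.0121).

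Ppard, a nuclear receptor for fatty acids, was 1.75-fold higher in CD-cc than in CD (log2 0.81 ± 0.202, adjusted p = 0.0167) and 2.06-fold higher in cc than in con (log2 1.04, adjusted p = 0.00170). Pparg, the relative that drives Cd36 in macrophages, was 0.70 lower in CD-cc than in con (adjusted p = 0.0268). Maf was 0.68 lower in CD-cc, where 1 of 5 arrays detected it, than in CD, where 5 of 5 did (adjusted p = 0.0107). Nfe2l2, the factor NRF2, differed from con by 0.66 in CD-cc (adjusted p = 0.272, and 0.0141 with the set block), 0.49 in CD (0.801) and 0.32 in cc (0.684).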
